A study of Mus musculus with 2 samples.

Results

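The Mrgprd non-peptidergic nociceptors, called NP1 in classifications of mouse sensory neurons, were 314 of the 1581 neurons recovered in 2 single-cell RNA libraries, which held 20585 barcodes in all. The libraries came from lumbar 4-5 dorsal root ganglia of wildtype mice aged 8 weeks that had received the acetone-ether-water (AEW) treatment, which dries the skin and is used as a model of itch. Both libraries are AEW samples, named replicate 1 and replicate 2, and no untreated group was analysed here, so every contrast below is between classes of neuron within AEW ganglia. Ganglia were dissociated with Liberase and then with Liberase and papain before droplet capture with 10x 3' chemistry. The labels do not say whether the replicates came from separate animals. Library was a term in the main tests, so their p-values rest on how differences between classes of neuron varied across the 2 libraries. That variation may be technical. The labels give the cell type as neuron, but of the 8818 and 11767 barcodes in replicates 1 and 2 only 638 and 943 met the limits for a neuron given next, which count unique molecular identifiers (UMIs) of neuronal genes.

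Members were chosen by measured values. A neuron had at least 500 genes, less than 20% mitochondrial UMIs, at least 10000 UMIs and at least 25 UMIs per 10000 from Uchl1, Tubb3, Snap25 and Stmn2 together. An NP1 neuron then had Mrgprd at 1 or more per 10000 UMIs, Mrgpra3 and Sst each under 1, and Th under 5. The levels of these genes are therefore descriptions and carry no test. NP1 neurons were set against all other neurons by the same limits, 481 in replicate 1 and 786 in replicate 2. They were also set against 2 neighbouring non-peptidergic classes, 32 and 55 neurons gated on Mrgpra3 (1 or more per 10000) and 20 and 17 neurons gated on Sst (5 or more).

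NP1 neurons are small unmyelinated C-fibre neurons whose endings lie free in the epidermis, and they are known for binding isolectin B4 and for little release of peptides. Mrgprd encodes a receptor for beta-alanine that couples to Gq and phospholipase C, and in mice these neurons take part in responses to noxious mechanical stimuli and in beta-alanine itch. During development the class leaves dependence on nerve growth factor for GDNF-family signalling through Ret, and the transcription factor Runx1 is required for this change in mice. The neighbouring classes are itch neurons too, the Mrgpra3 class answering chloroquine and the Sst class carrying the peptide Nppb and the receptor subunit Il31ra.

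The stretches before the start sites of NP1 marker genes, and of the named NP1-high genes whose promoter window held a Runx motif, show the sequences from which these transcripts start. Each runs 5′ to 3′ over the 250 bases before the start site (RefSeq, GRCm38.p6). Capitals mark the letters TGTGGT or their reverse complement ACCACA, the core of Runx binding sites. The Mrgprd stretch lies at chr7:145314585-145314834 on the plus strand, Ly86 at chr13:37345095-37345344 on the plus strand and Lpar3 at chr3:146220711-146220960 on the plus strand. Gm765 lies at chr6:98342755-98343004 and Serpina11 at chr12:103989958-103990207, both on the minus strand. Another annotation, GENCODE M21, starts the Ly86 gene at 37345208, which lies inside the Ly86 stretch.
Mrgprd: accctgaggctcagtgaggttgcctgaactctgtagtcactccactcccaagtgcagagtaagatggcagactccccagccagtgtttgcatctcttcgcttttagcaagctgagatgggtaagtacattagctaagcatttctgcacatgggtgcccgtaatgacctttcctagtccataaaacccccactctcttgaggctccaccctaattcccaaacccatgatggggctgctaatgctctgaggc
Ly86: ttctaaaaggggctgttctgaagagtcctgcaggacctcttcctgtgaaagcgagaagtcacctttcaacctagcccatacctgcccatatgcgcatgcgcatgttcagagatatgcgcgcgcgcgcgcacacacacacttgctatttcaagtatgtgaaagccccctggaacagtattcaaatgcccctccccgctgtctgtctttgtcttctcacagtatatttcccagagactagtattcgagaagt
Lpar3: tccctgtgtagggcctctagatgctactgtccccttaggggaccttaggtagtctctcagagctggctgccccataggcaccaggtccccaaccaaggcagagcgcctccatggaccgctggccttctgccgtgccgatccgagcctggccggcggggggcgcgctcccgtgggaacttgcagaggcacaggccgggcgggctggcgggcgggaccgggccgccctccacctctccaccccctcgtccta
Gm765: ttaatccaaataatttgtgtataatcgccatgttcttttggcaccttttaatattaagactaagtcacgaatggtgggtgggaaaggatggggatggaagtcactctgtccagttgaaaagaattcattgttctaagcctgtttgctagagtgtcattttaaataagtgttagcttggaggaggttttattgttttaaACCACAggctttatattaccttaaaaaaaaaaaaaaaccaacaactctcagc
Serpina11: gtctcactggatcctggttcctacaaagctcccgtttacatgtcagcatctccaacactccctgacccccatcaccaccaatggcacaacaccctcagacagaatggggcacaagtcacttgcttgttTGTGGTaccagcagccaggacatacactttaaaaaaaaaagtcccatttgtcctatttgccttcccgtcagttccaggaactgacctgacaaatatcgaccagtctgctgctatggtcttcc
The Mrgprd, Ly86 and Lpar3 stretches hold no such letters, and their GC content is 51.2%, 50% and 69.6%. In Gm765 the letters begin 52 bases before the start site, and in Serpina11 they begin 122 bases before it. Of 17 markers and named NP1-high genes looked up, 11 had a window in the table and 2 held the letters in any window of 300 bases (250 before the start and 50 after it), on either strand. Those 2 are 18.2% of the 11, against 18.9% of the 27025 mouse genes with a window. The match is a description of letters, and Grik1 had no window in the table.

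Of the 638 neurons of replicate 1, 157 were NP1, a share of 24.6% (21.3 to 28.1%, the 95% Clopper-Pearson interval). Of the 943 neurons of replicate 2, again 157 were NP1, a share of 16.6% (14.3 to 19.2%), which gives a mean of 20.6% ± 5.63 (SD, n = 2). The intervals cover counting error only and do not overlap, and both libraries gave the same number of members from different numbers of neurons. Median depth was 155995 and 79865 UMIs per NP1 neuron in replicates 1 and 2, against 90982 and 54377 in the other neurons. Mitochondrial UMIs had a median of 1.50% and 3.26% in NP1 neurons, against 3.12% and 3.82% in the other neurons. The 2 libraries shared 24 barcode sequences, none of them among the members. Another 3 and 10 neurons had Mrgprd at 1 or more but were kept out by Mrgpra3, Sst or Th.

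Levels are given as scaled CPM, the CPM of the UMIs summed over a gate and library after trimmed-mean (TMM) scaling of the totals, and paired values are always replicate 1 and then replicate 2. Mrgprd, the gene of the rule, stood at 281 and 222 in NP1 neurons, 23.9 and 17.5 in Mrgpra3 neurons, 2.51 and 0.873 in Sst neurons and 6.601 and 8.88 over all other neurons. Per member the median was 2.20 and 1.78 Mrgprd UMIs per 10000, and the highest member had 8.33 and 6.73.

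The other markers of the class, which the rule did not read, went with the label. Ly86, the secreted partner of the immune receptor Cd180, had 3076 and 2491 scaled CPM in NP1 neurons, 988 and 877 in Mrgpra3 neurons and 17.5 and 13.97 in Sst neurons. Ctxn3, a small membrane protein, had 917 and 1063 in NP1, 533 and 559 in Mrgpra3 and 91.5 and 47.1 in Sst neurons. Both genes thus reached into the Mrgpra3 class. Lpar3, a lysophosphatidic acid receptor, had 171 and 206 in NP1, 0.901 and 27.7 in Mrgpra3 and 0.418 and 0.873 in Sst neurons. Grik1, a kainate receptor subunit, had 765 and 728 in NP1, 102 and 94.8 in Mrgpra3 and 3.34 and 11.3 in Sst neurons, and it was also high in the Th gate, at 317 and 288. In every gate other than NP1 the level of each of these 4 genes was below both NP1 libraries.

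At least 3 of the 4 markers reached 1 per 10000 UMIs in 153 of 157 members (97.5%) and 152 of 157 members (96.8%), against 36 of 481 (7.48%) and 135 of 786 (17.2%) other neurons. All 4 did so in 91 and 106 members, against 0 of 32 and 10 of 55 Mrgpra3 neurons, so the Mrgpra3 gate of replicate 2 held neurons with the full NP1 marker set. In members just inside the threshold, with Mrgprd from 1 to 1.5, Ly86 stood at 2513 and 2394 CPM (not scaled) over 22 and 61 cells. In neurons just outside it, with Mrgprd from 0.5 to 1, Ly86 stood at 1363 and 1599 CPM over 21 and 67 cells. Of these neurons just outside, 21 of 21 and 58 of 67 reached 1 per 10000 for Ctxn3, 17 and 61 for Grik1 and 8 and 30 for Lpar3. Their Tac1 was 222 and 1016 CPM, against 255 and 468 just inside, and their Calca 2706 and 3574, against 2211 and 2126. Many neurons just under the threshold thus carried NP1 markers as well, with more Tac1 in replicate 2, and they count among the other neurons.

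**Figure D1:**
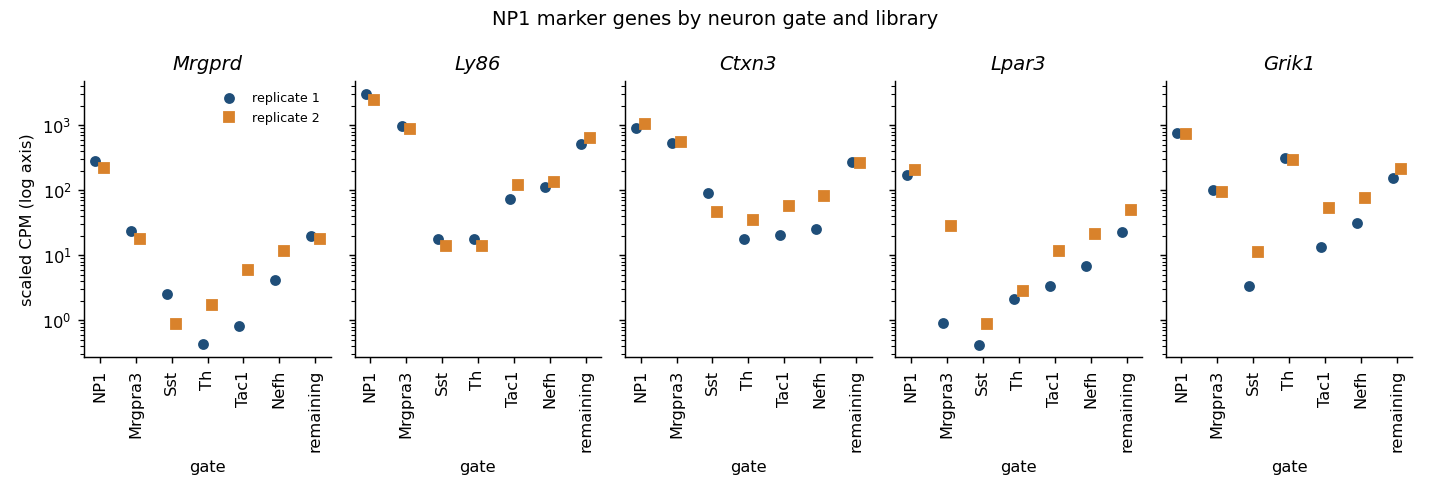
Scaled CPM (log axis) of the 5 NP1 markers in each gate of neurons, with 1 point per library. Mrgprd was read by the gates; Ly86, Ctxn3, Lpar3 and Grik1 are highest in the NP1 gate, and the Mrgpra3 gate is next for Ly86 and Ctxn3.

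**Figure D2:**
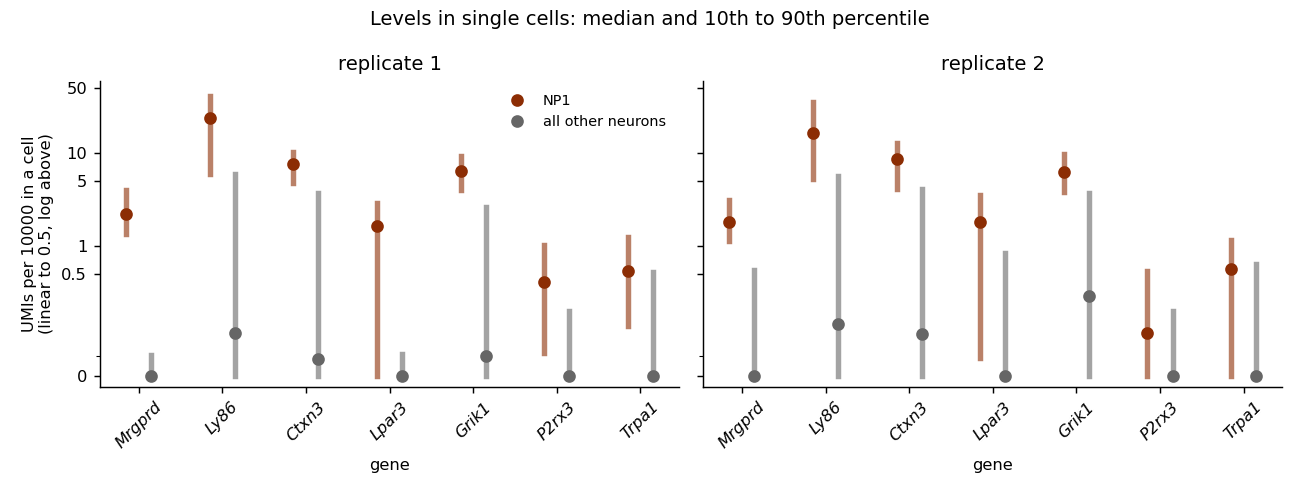
UMIs per 10000 in single neurons (axis linear to 0.5 and logarithmic above), with NP1 left of all other neurons and 1 panel per replicate, for genes that mark or vary in NP1 (point: median over cells, line: 10th to 90th percentile). Ly86 has a median of 24.1 and 16.6 in NP1 neurons, against 0.21 and 0.26 in the other neurons.

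Free RNA leaves UMIs in cells that do not express a gene, so shares of cells were compared after thinning each cell to 10000 UMIs and set beside non-neuronal barcodes of the same minimum depth. At least 1 Mrgprd UMI was seen in 88.5% and 89.2% of thinned NP1 neurons, against 5.41% and 9.41% of other neurons and 0.890% and 2.67% of non-neuronal barcodes. For Ly86 the shares were 96.8% and 98.7% in NP1, against 35.6% and 40.6% in other neurons and 16.9% and 25.5% in non-neuronal barcodes. For Trpa1 they were 39.5% and 44.6% in NP1, against 15.2% and 16.9% in other neurons and 0.890% and 1.57% in non-neuronal barcodes. Before thinning the median depth of NP1 neurons was above that of the other neurons in both libraries, and of the non-neuronal barcodes it was 12523.5 and 12244.5 UMIs.

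Set against all other neurons, NP1 neurons had more RNA of Gna14 and Plcb3, which act in Gq signalling, of the channels Trpa1, P2rx3 and Scn11a and of Ggta1, which makes alpha-galactosyl glycans. They had less of the peptide precursors Penk, Nppb and Calca and of the neurotrophin receptor Ngfr. In edgeR's quasi-likelihood test on the summed UMIs of each gate and library, 7729 of 14651 genes passed an adjusted p of 0.05 (52.8%), 3700 higher (25.3%) and 4029 lower (27.5%) in NP1. The call is thus the common outcome for a gene in this contrast. At 2-fold or more 673 called genes were higher and 2551 lower, and at 4-fold or more 164 were higher and 1465 lower. With UMI totals in place of TMM factors the split became 1713 higher and 6511 lower, and the median log2 fold of all genes moved to -0.30, against -0.03 with TMM; folds near that size therefore depend on the scaling. For genes given by their fold alone, the folds within both libraries follow in brackets, replicate 1 first, where either lay more than 1.5-fold away from the fitted one; folds within 1 library carry no test.

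Among called genes that reached 20 CPM in both NP1 libraries, those with the largest rise were Gm765, Otoa, Agtr1a, Mlip and the marker Ly86. Gm765 had 484 and 446 scaled CPM in NP1 neurons, against 26.5 and 43.2 in the other neurons, a log2 fold of 3.81 ± 0.29 (SE, adjusted p = 0.00628). Otoa, an attachment protein of inner ear gels, had 71.1 and 64.6 scaled CPM in NP1 neurons, against 3.75 and 6.55 in the other neurons, a log2 fold of 3.799 ± 0.27 (SE, adjusted p = 8.92e-04). Agtr1a, the angiotensin II receptor, had 40.5 and 39.98 scaled CPM in NP1 neurons, against 1.81 and 4.86 in the other neurons, a log2 fold of 3.73 ± 0.50 (SE, adjusted p = 0.0364), and 4.47 and 3.04 within the libraries. The libraries of the 2 groups did not overlap for these 3 genes. They were chosen for a large fold with the same sign in both libraries, so this adds no further evidence. After thinning, 29.9% and 23.6% of NP1 neurons held an Agtr1a UMI, against 1.66% and 5.22% of other neurons and 2.76% and 4.40% of non-neuronal barcodes. Ly86 had a log2 fold of 3.59 ± 0.10 (SE, adjusted p = 1.00e-09), Ctxn3 of 3.08 ± 0.08 (SE, adjusted p = 1.08e-11) and Grik1 of 2.97 ± 0.25 (SE, adjusted p = 0.00593).

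Mlip, which binds lamin in muscle, rose by 3.69 on the log2 scale and the homeobox factor Barx2 by 3.52. Of serpin genes, Serpina11 rose by 3.27, and Serping1, the C1 inhibitor of complement, rose by 3.05 (238 and 229.7 scaled CPM in NP1, against 24.5 and 34.4). S100a7l2, a gene of the S100 family, rose by 3.02. Ccdc192, Mroh2b, Ms4a3 and Gm16364 make up the rest of these 15 called genes, at 3.28, 3.01 (3.61 and 2.27), 2.91 and 2.86. Lpar3, although at 171 and 206 scaled CPM in NP1 neurons, against 6.54 and 19.4 in the other neurons, missed the threshold with a log2 fold of 4.06 ± 0.57 (SE, adjusted p = 0.0733); it passed with DESeq2, with thinned cells and without the neurons just under the Mrgprd threshold.

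Among the genes that fell most by the same limits, several define other classes of itch and pain neuron. Penk, the enkephalin precursor, had 0 and 0.810 scaled CPM in NP1 neurons, against 38.2 and 53.3 in the other neurons, a log2 fold of -7.24 ± 0.52 (SE, adjusted p = 0.00106). In replicate 1 just 9 of 481 other neurons reached 1 Penk UMI per 10000, and all 32 Mrgpra3 neurons stood at 0. Nppb, the natriuretic peptide of Sst neurons, had 0.879 and 2.43 scaled CPM in NP1 neurons, against 121 and 154 in the other neurons, and Il31ra, a receptor subunit of itch cytokine signalling, had 0.827 and 1.11 scaled CPM in NP1 neurons, against 31.3 and 21.03 in the other neurons. The neuropeptide Y receptors Npy2r and Npy1r fell, at -5.38 and -4.97 on the log2 scale, the somatostatin receptor Sstr2 at -4.42 (-4.11 and -5.04) and the peptide PACAP (Adcyap1) at -4.65 (-5.26 and -4.13). Kcnk3, an acid-sensitive background potassium channel, fell, at -4.29 (-5.31 and -3.44), and Rspo1, an enhancer of Wnt signalling, at -4.63 (-5.42 and -3.87). Gm525, Necab2, Gpx2, C1ql4, Sez6 and Car8 fell, at -7.13, -4.65, -4.44, -4.40, -4.23 (-5.36 and -3.05) and -4.15. Satellite glia markers (Fabp7, Apoe, Kcnj10, Cadm4, Ptprz1) summed to 738 and 870 scaled CPM in NP1, against 1858 and 1649 in the other neurons, and all 5 were lower in NP1. Their part in the falls was not tested; without the neurons at or above 50 glial UMIs per 10000, 6962 genes passed. In the mean of the other gates every class weighs the same. Against that mean 2815 of 13410 genes were higher and 2125 lower, so the balance over all genes turned towards higher. List counts given below for this setting stand beside that split. In it 17 of the genes named for this contrast lost the call: Penk, Gm525, Npy1r, Il31ra, Gpx2, Sstr2, C1ql4, Calca, Kcnq3, P2ry1, Cacna1e, Slc17a7, Gabrb1, Prkcb, Pou4f3, Bcl11a and Sprr1a. Without the expected doublets Gm765, Agtr1a, Mroh2b, Adcyap1 and Sez6 lost it.

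**Figure D3:**
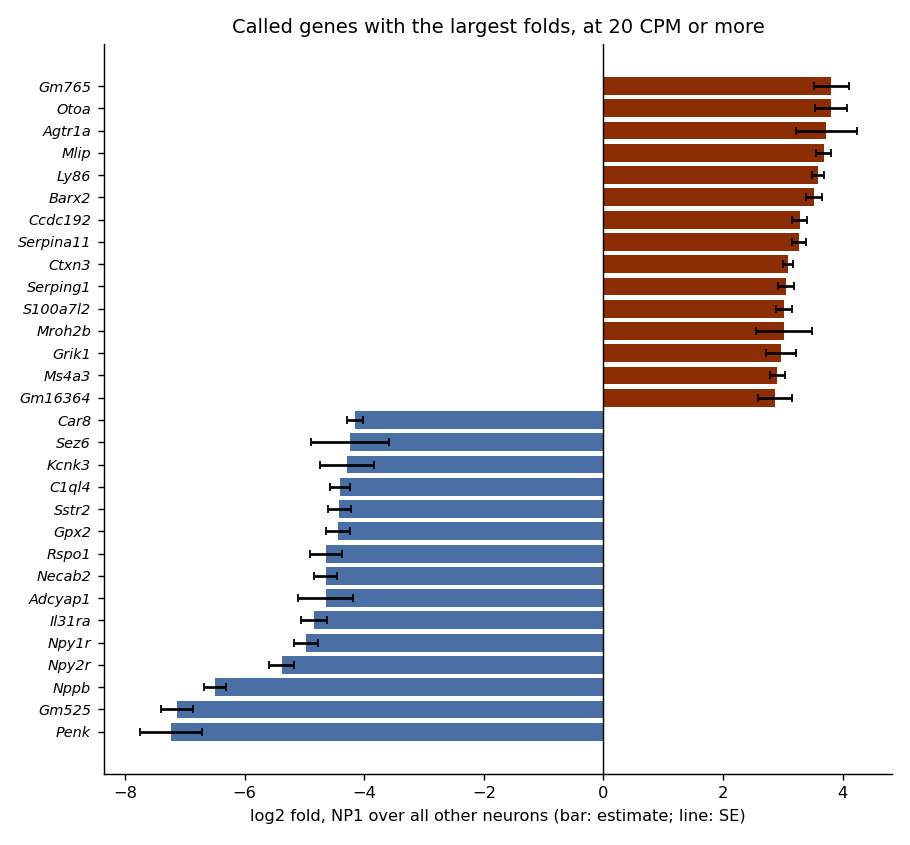
Fitted log2 fold, NP1 over all other neurons, of the 15 called genes with the largest rise and the 15 with the largest fall among those whose higher group reached 20 CPM in each library (bar: estimate, line: SE). Penk lies lowest, at -7.24 ± 0.52 (SE, adjusted p = 0.00106), and Gm765 highest, at 3.81 ± 0.29 (SE, adjusted p = 0.00628).

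The Mrgpr family, receptors of itch and pain ligands, had 6 tested genes that the rule did not read, of which 3 were higher and 1 lower (median log2 fold 1.11, against -0.03 over all genes tested). Mrgpra2a and Mrgpra2b rose by 1.62 and 1.61 on the log2 scale; they are near-identical copies, and counting could split their reads. The third, Mrgprb5, named after its values were seen, had 2.07 and 1.32 scaled CPM in NP1 neurons, against 0.237 and 0.172 in the other neurons. Mrgpre fell, at -0.56. Of 6 family genes tested against Mrgpra3 neurons none was called higher and 2 were lower (median -0.66). Against Sst neurons 1 was higher and none lower (median 0.58). Of 41 genes of G protein signalling, 24 were higher and 10 lower than in all other neurons (median log2 fold 0.46). With UMI totals the counts were 17 and 14. Gna14, a Gq-class alpha subunit, had 234 and 229 scaled CPM in NP1 neurons, against 67.6 and 66.7 in the other neurons, a log2 fold of 1.82 ± 0.08 (SE, adjusted p = 5.01e-10). Plcb3, the phospholipase C that such subunits activate, had 279 and 275 scaled CPM in NP1 neurons, against 95.3 and 87.5 in the other neurons, a log2 fold of 1.64 ± 0.08 (SE, adjusted p = 1.18e-09). Gnaq rose by 1.31, protein kinase C alpha (Prkca) by 1.92 and the G protein regulator Rgs7 by 2.38. The adenylyl cyclases Adcy3, Adcy2 and Adcy1 fell, at -4.25, -3.99 and -3.23, and protein kinase C beta (Prkcb) at -3.03.

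Among 15 TRP channels, 5 were higher and 3 lower (median log2 fold 0.24; -0.04 with UMI totals). Trpa1, a receptor of irritants, had 67.8 and 71.5 scaled CPM in NP1 neurons, against 18.5 and 25.3 in the other neurons, a log2 fold of 1.73 ± 0.11 (SE, adjusted p = 2.17e-08). Trpc6, a channel opened by diacylglycerol, rose by 2.72 (37.3 and 37.8 scaled CPM in NP1, against 5.44 and 6.31). Trpm4 rose by 0.85, and Trpm2 fell, at -4.15. The heat and capsaicin channel Trpv1 had 13.1 and 22.5 scaled CPM in NP1 neurons, against 196 and 139 in the other neurons and missed the threshold at a log2 fold of -3.25 ± 0.54 (SE, adjusted p = 0.0824); it passed with DESeq2 and with thinned cells. Of 13 sodium channel genes 2 were higher and 9 lower (median log2 fold -1.73), and 2 and 5 of 12 against the mean of the other gates (median -0.85). The 2 higher than in all other neurons were the channels of nociceptors that resist tetrodotoxin. Scn11a had 560.4 and 479 scaled CPM in NP1 neurons, against 203 and 182 in the other neurons, a log2 fold of 1.47 ± 0.08 (SE, adjusted p = 1.54e-09). Scn10a had 549.9 and 471 scaled CPM in NP1 neurons, against 272 and 234 in the other neurons, a log2 fold of 1.05 ± 0.08 (SE, adjusted p = 4.01e-08). Scn1a and Scn8a, used by large fibres, fell, at -3.36 and -2.24, with the subunits Scn2b and Scn3b at -2.37 and -2.04.

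Potassium channel genes split, with 18 of 64 higher and 38 lower (median log2 fold -0.66). The count turned to 23 higher and 16 lower when NP1 was set against the mean of the other gates, with every class weighing the same. All tested genes turned the same way, from 3700 higher and 4029 lower to 2815 and 2125. Among called subunits at 10 CPM or more, those with the largest rise were Kcnk13, Kcnk12, Kcnab1 and Kcnip4, at 2.04, 2.02, 1.98 and 1.86. Kcnq3 fell, at -4.19 (-4.97 and -3.26), and the mechanically gated Kcnk2 at -3.84. Of 17 calcium channel genes 2 were higher and 8 lower (median log2 fold -0.23), against 5 and 4 relative to the mean of the other gates, with Cacna1e and the T-type Cacna1h down, at -4.95 (-5.44 and -4.05) and -3.31. Of 19 HCN, acid-sensing, mechanical and chloride channel genes 6 were higher and 9 lower (median log2 fold -0.43). Ano3 rose by 1.67, while the acid-sensing Asic1 and Asic3 fell, at -3.30 and -3.18.

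Of 18 purinergic receptors and ectonucleotidases, 5 were higher and 8 lower (median log2 fold -0.80), and 5 and 3 against the mean of the other gates. P2rx3, the ATP-gated channel typical of isolectin B4 binding neurons, had 58.99 and 30.5 scaled CPM in NP1 neurons, against 9.58 and 8.78 in the other neurons, a log2 fold of 2.29 ± 0.21 (SE, adjusted p = 3.23e-04). Nt5e and Acpp, both of which make adenosine from AMP, rose by 1.54 and 1.22 (Acpp had 489 and 458 scaled CPM in NP1, against 202 and 216), and the ectonucleotidase Entpd3 by 0.51. The receptor P2ry1 fell, at -2.72. Of 8 lysophospholipid receptors, 5 were lower and none was higher (median log2 fold -1.35), S1pr3 and Lpar1 among them at -3.45 and -1.99; the mean of the other gates gave 3 lower and 1 higher, DESeq2 size factors gave 4 lower and the fit without glia-high cells 1 higher. Of 20 glycan genes linked to isolectin B4 binding, 9 were higher and 9 lower (median log2 fold 0.18), and 10 and 4 against the mean of the other gates. The lectin binds terminal alpha-galactose. Of the enzymes that add it, Ggta1 and A3galt2 rose and A4galt fell. Ggta1 had 27.8 and 28.5 scaled CPM in NP1 neurons, against 4.59 and 5.74 in the other neurons, a log2 fold of 2.50 ± 0.13 (SE, adjusted p = 1.49e-09), and A3galt2 rose by 2.68. A4galt and the ganglioside enzyme St3gal5 fell, at -3.63 and -3.41.

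In the list of GDNF, Trk and their receptors 2 of 13 genes were higher and 9 lower (median log2 fold -1.51), and 4 and 7 of 12 against the mean of the other gates (median -0.62). Gfra2, the neurturin co-receptor, had 302 and 388 scaled CPM in NP1 neurons, against 89.4 and 179.8 in the other neurons, a log2 fold of 1.47 ± 0.17 (SE, adjusted p = 0.00204). Ret, the kinase it signals through, had 542 and 495 scaled CPM in NP1 neurons, against 269 and 305 in the other neurons, a log2 fold of 0.89 ± 0.09 (SE, adjusted p = 1.51e-06). The artemin co-receptor Gfra3 fell, at -3.56, the neurotrophin receptor Ngfr at -3.52, and the kinase Ntrk2 at -2.85. Of 44 transcription factors of sensory neurons, 13 were higher and 19 lower (median log2 fold -0.29), and 13 and 8 against the mean of the other gates. Runx1 had 253 and 322 scaled CPM in NP1 neurons, against 149 and 203 in the other neurons, a log2 fold of 0.75 ± 0.08 (SE, adjusted p = 2.19e-06), and Bnc2 rose by 1.65. Tbx3, Pou4f3, Bcl11a and Hopx fell, at -3.79, -3.70 (-3.33 and -5.01), -3.47 and -3.04.

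Against all other neurons, neuropeptide and granin genes were mostly lower, 14 of 25, with 6 higher (median log2 fold -2.80). Relative to the mean of the other gates 8 were lower and 6 higher. Against Mrgpra3 neurons 3 of 24 were lower and 1 higher (median 0.09), and against Sst neurons 4 were lower and 11 higher (median 0.85). Calca, the precursor of CGRP, had 1725 and 2123 scaled CPM in NP1 neurons, against 6700.4 and 8417 in the other neurons, a log2 fold of -1.93 ± 0.07 (SE, adjusted p = 7.12e-11). Calcb, its close paralog, rose by 1.21, with Scg3 and Nmb at 1.93 and 1.29. Tac1, the substance P precursor, had 259.5 and 365 scaled CPM in NP1 neurons, against 2115 and 2799.8 in the other neurons, a log2 fold of -2.95 ± 0.08 (SE, adjusted p = 1.08e-11). The Tac1 gate was part of the other neurons, and against the mean of the gates the log2 fold of Tac1 was 0.03. Tac1 itself sorted neurons into or out of the Tac1 gate, so that value is partly set by the gating. Of 23 itch receptors 3 were higher and 15 lower (median log2 fold -2.03), and 5 and 10 against the mean of the other gates (median -1.18). The prostaglandin receptors Ptger3 and Ptgdr rose by 2.27 and 2.22 and the serotonin receptor Htr2a by 1.78. The serotonin receptor Htr1f had 0.207 and 0 scaled CPM in NP1 neurons, against 26.7 and 12.7 in the other neurons, a log2 fold of -7.26 ± 0.31 (SE, adjusted p = 2.66e-10), and Htr1b and Htr1d fell, at -4.11 and -3.68. Of 20 inhibitory and neuropeptide receptors 3 were higher and 17 lower (median log2 fold -2.41), against 3 and 4 relative to the mean of the other gates. The delta opioid receptor Oprd1, low in both groups, had 1.91 and 1.01 scaled CPM in NP1 neurons, against 0.237 and 0.0736 in the other neurons, a log2 fold of 3.22 ± 0.50 (SE, adjusted p = 9.06e-05). The mu opioid receptor Oprm1 fell, at -1.83 (-1.67 and -2.45). Of the inhibitory and neuropeptide receptors, 2 of 19 were higher and 4 lower than in Mrgpra3 neurons (median -0.56). Against Sst neurons 3 were higher and 5 lower (median 2.39).

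Of 22 glutamate receptor and transporter genes 2 were higher and 15 lower (median log2 fold -2.44); against the mean of the other gates 4 of 21 were higher and 8 lower (median -0.94). The 2 higher than in all other neurons were Grik1 and Grm7, the second at 0.55, while the vesicular transporter Slc17a7 fell, at -3.45 and Gria4 at -2.44. Of 13 GABA receptor genes 10 were lower and 2 higher (median log2 fold -1.59), against 5 lower and 4 higher relative to the mean of the other gates (median -0.82). Gabrb1 fell, at -3.77, and Gabbr1 and Gabbr2 were higher, at 0.39 and 0.38, folds that lost the call with UMI totals. Of 13 GABA receptor genes tested against Mrgpra3 neurons 3 were higher and none lower (median 0.27). Against Sst neurons 4 were higher and none lower (median 0.77). Adhesion and guidance genes were lower in 24 of 39 and higher in 5 (median log2 fold -1.40); against the mean of the other gates 14 of 37 were lower and 7 higher (median -0.37). Cd55, a complement regulator typical of this class, had 1140.2 and 997 scaled CPM in NP1 neurons, against 217 and 180.2 in the other neurons, a log2 fold of 2.47 ± 0.08 (SE, adjusted p = 2.73e-11). Cdh1 (E-cadherin) and the semaphorin receptor Plxnc1 rose by 2.15 and 1.69, while the semaphorin receptor genes Plxna4, Nrp1 and Nrp2 fell, at -3.62, -3.52 and -3.14 (-2.86 and -3.76).

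The last 2 lists are axon injury and immediate early genes. Of 18 axon injury genes 12 were lower and 1 higher (median log2 fold -1.62), and 7 and 3 of 17 against the mean of the other gates (median -1.06). The gene higher than in all other neurons was the cytokine receptor Lifr, at 0.80. Sprr1a fell, at -7.28 (-6.32 and -8.07) and the growth cone gene Gap43 at -3.02 (85.7 and 80.8 scaled CPM in NP1, against 746 and 638). Of 23 immediate early genes 17 were lower and 1 higher (median log2 fold -0.97). The gene that rose, Fosl1, named after its values were seen, had 0.672 and 1.42 scaled CPM in NP1 neurons, against 0.173 and 0.834 in the other neurons. Atf3 had 27.5 and 85.6 scaled CPM in NP1 neurons, against 71.7 and 208 in the other neurons, and its level differed between the libraries by more than the log2 fold of -1.29 ± 0.09 (SE, adjusted p = 2.59e-08) between the groups. Egr1, Btg2 and Dusp1 fell, at -1.41, -2.28 and -1.22. Without the library term Egr1, Atf3 and Dusp1 lost the call. Dissociation can induce these genes, and its part was not tested.

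**Figure D4:**
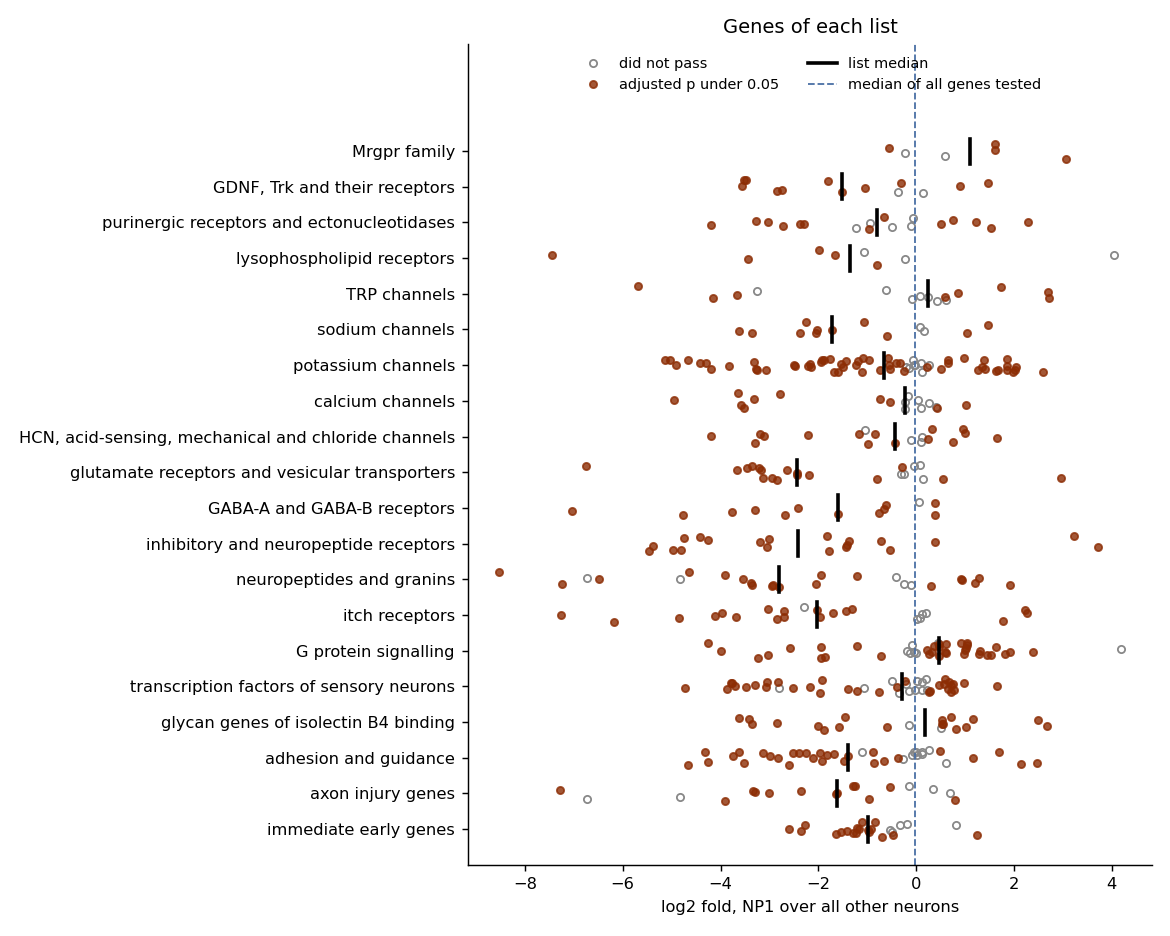
Log2 fold of each tested gene of the lists, NP1 against all other neurons, with called and uncalled genes marked and a line at each list's median. Neuropeptides (median -2.80), glutamate receptors (-2.44) and inhibitory and neuropeptide receptors (-2.41) lie lowest, and the Mrgpr family (1.11) and G protein genes (0.46) lie highest. Not plotted are the medians of these lists, in the same order, against single classes. They were 0.09, -0.16, -0.56, -0.66 and 0.10 against Mrgpra3 neurons, and 0.85, -0.01, 2.39, 0.58 and 0.10 against Sst neurons.

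Against the Mrgpra3 class 2030 of 13405 genes passed (15.1%), 960 higher (7.16%) and 1070 lower (7.98%), in edgeR's quasi-likelihood test. The fit took its spread from other gates too and had fewer cells on the Mrgpra3 side, so its count cannot be read against that of the contrast with all other neurons. With UMI totals the split was 774 higher and 1183 lower. Receptors and channels such as Lpar3, Hrh1 and Trpv1 passed, while several genes known from non-peptidergic nociceptors did not. Scn11a had 560.4 and 479 scaled CPM in NP1 neurons, against 504 and 449 in Mrgpra3 neurons, with a log2 fold of 0.06 ± 0.26 (SE, adjusted p = 0.924). P2rx3 had 58.99 and 30.5 scaled CPM in NP1 neurons, against 30.4 and 22.3 in Mrgpra3 neurons, with a log2 fold of 0.68 ± 0.26 (SE, adjusted p = 0.120). Neither passed, nor did Scn10a at 0.20 ± 0.12 (SE, adjusted p = 0.333), Cd55 at 0.35 ± 0.38 (SE, adjusted p = 0.641), Plxnc1 at 0.22 ± 0.30 (SE, adjusted p = 0.717), Gna14 at 0.10 ± 0.41 (SE, adjusted p = 0.922), Plcb3 at 0.11 ± 0.18 (SE, adjusted p = 0.773) or Ctxn3 at 0.78 ± 0.45 (SE, adjusted p = 0.358). With 32 and 55 Mrgpra3 neurons these errors leave room for differences of around 2-fold in several of them, and a missed threshold does not show equal levels.

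Among called genes at 20 CPM or more in both NP1 libraries, Prkcq, protein kinase C theta, had the largest rise over Mrgpra3 neurons. Prkcq had 196 and 162 scaled CPM in NP1 neurons, against 0.451 and 21.5 in Mrgpra3 neurons, a log2 fold of 4.47 ± 0.96 (SE, adjusted p = 0.0336). Lpar3 had 171 and 206 scaled CPM in NP1 neurons, against 0.901 and 27.7 in Mrgpra3 neurons, a log2 fold of 4.15 ± 0.74 (SE, adjusted p = 0.0163). For both, the Mrgpra3 level of replicate 2 was far above that of replicate 1, and the fold within replicate 2 was 2.91 for Prkcq and 2.90 for Lpar3. Gm765, Nupr1, Mlip and Kcnab1 rose by 4.42 (8.06 and 3.02), 4.33 (6.62 and 3.12), 3.70 (4.88 and 3.03) and 3.58 (4.41 and 2.95). Prmt8, the sialyltransferase St6galnac5, Cdh11 and Hoxb5 rose by 3.58 (5.13 and 2.70), 3.55 (4.40 and 2.91), 3.41 (4.18 and 2.86) and 3.30. Gfra2 had 302 and 388 scaled CPM in NP1 neurons, against 20.5 and 54.4 in Mrgpra3 neurons, a log2 fold of 3.30 ± 0.49 (SE, adjusted p = 0.00594). Runx1 rose by 1.71, Ret by 0.61, Grik1 by 2.85, Ly86 by 1.51, Ggta1 by 2.35 and Trpa1 by 1.99. The touch channel Piezo2 rose by 1.34.

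Lower in NP1 than in Mrgpra3 neurons were Ovol2, a zinc finger factor, and Hrh1, the histamine receptor of itch. Ovol2 had 0.155 and 0.607 scaled CPM in NP1 neurons, against 36.1 and 47.8 in Mrgpra3 neurons, a log2 fold of -7.02 ± 0.73 (SE, adjusted p = 3.12e-04), and -7.77 and -6.27 within the libraries. Hrh1 had 0.310 and 0.101 scaled CPM in NP1 neurons, against 29.5 and 21.9 in Mrgpra3 neurons, a log2 fold of -6.84 ± 0.48 (SE, adjusted p = 1.10e-06), and -6.53 and -7.62 within the libraries. Mural cell markers (Rgs5, Acta2, Kcnj8) summed to 12.5 and 23.2 scaled CPM in NP1, against 335 and 258 in Mrgpra3 neurons and 618 and 569 in Th neurons. Of the 2 that entered the test against Mrgpra3 neurons, 1 was called lower. The part of mural cells in the falls was not tested. Rspo1, the sodium-calcium exchanger Slc8a1, Gda, Cfap61, Cdhr1, Syne4, Crip1 and Car8 fell, at -6.88, -5.70, -5.26, -5.17 (-4.45 and -5.54), -5.12 (-5.43 and -4.51), -5.12, -5.01 and -4.94. Calca fell to 1725 and 2123 scaled CPM in NP1 neurons, against 10454 and 10691 in Mrgpra3 neurons, a log2 fold of -2.53 ± 0.58 (SE, adjusted p = 0.0377). Trpv1 fell, at -3.099 (-3.94 and -1.88), the ATP-gated P2rx2 at -5.19 (-5.64 and -4.58), the galanin receptor Galr1 at -6.05, the oncostatin M receptor Osmr at -3.16 (-3.69 and -2.41) and Etv1 at -4.70. Mrgprx1 had 1.86 and 2.63 scaled CPM in NP1 neurons, against 11.04 and 10.6 in Mrgpra3 neurons, a log2 fold of -2.35 ± 0.64 (SE, adjusted p = 0.0327). Of the 3 markers of the Mrgpra3 class that were tested, Hrh1 and Mrgprx1 were thus lower in NP1, but Ptgdr was called higher. Its median in replicate 1 was 0.55 per 10000 UMIs in NP1 neurons, against 0.25 in Mrgpra3 neurons. Of 23 itch receptors 3 were higher and 7 lower than in Mrgpra3 neurons (median log2 fold -0.90), and of 63 potassium channels 19 were higher and 6 lower (median log2 fold 0.45). The median over all genes tested was 0.01. Among those higher were Ptger3 at 3.87 (4.85 and 2.95) and Htr2a at 3.77 (4.66 and 3.14), and Kcnc4 and Kcnma1 at 2.54 and 2.06. Without the library term Prkcq, Gm765, Lpar3, Ret, Gfra2 and Mrgprx1 lost the call, and with thinned cells Gm765, Kcnab1, Grik1, Gfra2, Trpv1, Calca and Ggta1 did.

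Against the Sst class 4169 of 13410 genes passed (31.1%), 2318 higher (17.3%) and 1851 lower (13.8%) in NP1; with UMI totals 1509 were higher and 2852 lower. The Sst gate held 17 neurons in replicate 2, under the minimum of 20 set for a gate, and the contrast comes from a fit whose minimum was 15. NP1 neurons had more of the CGRP genes, Gfra2 and Ly86, and less of the receptors and peptides of the Sst class. Ly86 had 3076 and 2491 scaled CPM in NP1 neurons, against 17.5 and 13.97 in Sst neurons, a log2 fold of 7.31 ± 0.30 (SE, adjusted p = 2.94e-09). Gfra2 had 302 and 388 scaled CPM in NP1 neurons, against 3.76 and 11.3 in Sst neurons, a log2 fold of 5.62 ± 0.66 (SE, adjusted p = 5.56e-04), and 6.32 and 5.09 within the libraries. Calca had 1725 and 2123 scaled CPM in NP1 neurons, against 145 and 187 in Sst neurons, a log2 fold of 3.45 ± 0.60 (SE, adjusted p = 0.00521), the opposite direction to the contrast with Mrgpra3 neurons. Calcb rose by 5.31, Grik1 by 6.82 (7.83 and 6.00), Ctxn3 by 3.59 (3.33 and 4.49), Kcnab1 by 6.38 and Cdh1 by 5.02.

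Several genes had no UMI in any Sst neuron, and their ratio is a lower bound against a floor of 3 UMIs over the gate, on shares of UMIs. Cdk15, a cyclin-dependent kinase, had 2391 UMIs in NP1 neurons and was at least 76.4-fold higher. S100a7l2 was at least 29.4-fold higher, Rnf182 at least 21.6-fold and Ptger3 at least 16.7-fold. With 1 to 3 UMIs in Sst neurons, Lpar3 had a ratio of 256 (95% counting interval 70.9 to 2116), Casz1 457 (81.9 to 18043.8), Ptgdr 171 (30.7 to 6777), Prmt8 136 (24.3 to 5368) and Adcy5 122 (21.8 to 4819). In the other direction Gm40538 and Gm47595 had no UMI in NP1 and were at least 817-fold and 344-fold lower. 9230105E05Rik had 1 UMI in NP1, a ratio of 7413 (1326 to 293205) lower.

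Htr1f, the serotonin receptor, had 0.207 and 0 scaled CPM in NP1 neurons, against 309 and 175 in Sst neurons, a log2 fold of -10.83 ± 0.40 (SE, adjusted p = 1.08e-10). Il31ra had 0.827 and 1.11 scaled CPM in NP1 neurons, against 381 and 292 in Sst neurons, a log2 fold of -8.59 ± 0.43 (SE, adjusted p = 2.01e-07). Nppb fell, at -10.55 (-10.82 and -9.96), Npy2r at -8.99, Htr1a at -9.13 (-9.57 and -8.32), Gm525 at -11.12, Ptprk at -8.53, neurotensin (Nts) at -7.62 (-7.09 and -8.29), the leukotriene receptor Cysltr2 at -5.79 and P2rx2 at -7.25. Of 23 itch receptors 4 were higher and 10 lower than in Sst neurons (median log2 fold -0.75, against 0.05 over all genes tested). Trpv1 fell, at -3.75 (-4.19 and -3.13). Of 22 immediate early genes 12 were lower and 1 higher (median log2 fold -1.18), with Atf3, Jun and Egr1 at -2.39, -2.01 and -1.76. Trpa1 rose by 1.58, P2rx3 by 1.37, Scn10a by 0.40, Cd55 by 2.22, Ret by 1.45, Ggta1 by 3.18 and Piezo2 by 2.41. Scn11a at 0.38 ± 0.26 (SE, adjusted p = 0.325), Runx1 at 0.36 ± 0.23 (SE, adjusted p = 0.272), Plxnc1 at 0.27 ± 0.32 (SE, adjusted p = 0.586), Gna14 at -0.20 ± 0.40 (SE, adjusted p = 0.757) and Plcb3 at 0.08 ± 0.18 (SE, adjusted p = 0.792) missed the threshold. Gna14 had 234 and 229 scaled CPM in NP1 neurons, against 236 and 263 in Sst neurons, and Plcb3 had 279 and 275 scaled CPM in NP1 neurons, against 239 and 251 in Sst neurons. The Gna14 values of NP1 were below, and the Plcb3 values above, those of both Sst libraries, by less than the test could call. With thinned cells Calca, P2rx3, Ggta1 and Egr1 lost the call, and without the library term Scn10a, Atf3 and Egr1 did.

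**Figure D5:**
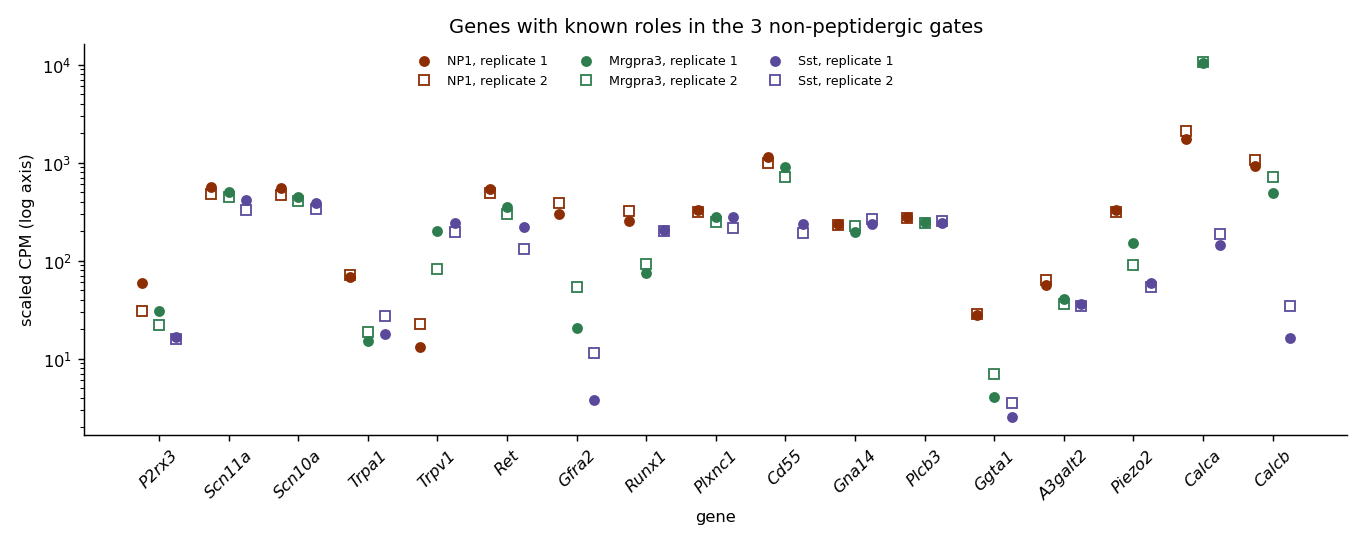
Scaled CPM (log axis) of genes with a known role in Mrgprd neurons in NP1, Mrgpra3 and Sst neurons, 1 point per library (replicate 2 open). Gfra2 and Trpa1 are higher in NP1 than in both other classes, and Gna14 and Plcb3 passed the test against neither.

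NP1 neurons also varied among themselves. Cells were thinned to 10000 UMIs, and 2900 genes were ranked by the lower of the 2 libraries' variance-to-mean ratios, whose median was 1.16 and 1.13. The 12 leading genes were Malat1 (209), Apoe (207), 6 mitochondrial genes, Fabp7 (24.8), Fxyd7 (18.1), Fxyd2 (16.4) and Calca (15.2). Apoe and Fabp7 are satellite glia genes, and 6 and 3 members held at least 50 glial UMIs per 10000. Apoe had a median of 2.28 and 1.59 per 10000 in members and a maximum of 483 and 930. Malat1, a nuclear RNA, had a median of 48.9 and 5.35, so that it differed between the libraries as well as between cells. Calca ran between 1.35 and 84.7 per 10000 in replicate 1 and between 0.94 and 187 in replicate 2, around medians of 10.4 and 12.8. Fxyd2, a regulator of the sodium pump found in this class, had medians of 108 and 122.

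Tac1 reached 5 or more per 10000 in 22 and 30 members, which would place a neuron without Mrgprd in the Tac1 gate. These members had a median Calca of 18.3 and 25.9 per 10000, against 9.68 and 10.1 in the other members. Their median Mrgprd was 1.69 and 1.35, against 2.35 and 1.95, and their Grik1 5.12 and 5.24, against 6.65 and 6.501. At least 3 of the 4 NP1 markers were present in 22 of 22 and 29 of 30 of them. They were shallower, with medians of 103180 and 44813 UMIs, against 156889 and 84751, and held 8.28 and 21.2 glial UMIs per 10000, against 7.20 and 6.39. Removing expected doublets took away 4 and 0 members. The part of doublets and glia in these values was not tested.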

How the data were processed

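Single-cell suspensions of lumbar dorsal root ganglia were profiled in 2 libraries with 10x 3' chemistry. The authors deposited raw UMI counts per gene and barcode, made with Cell Ranger 5.0.1 on mm10, per the file headers and the submitters' processing notes, which also name CASAVA 1.8; the feature and barcode lists were deposited beside them. The matrices total 113251556 UMIs over 8818 barcodes and 102347251 over 11767.

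From these, cells were gated by the limits given above, UMIs were summed per gate and library, and edgeR 4.0.16 (R 4.3.3; quasi-likelihood fit, robust, TMM, filterByExpr, library as a term, Benjamini-Hochberg over all genes tested) gave folds and adjusted p-values. The contrast with all other neurons used 4 sums, which leave 1 residual degree of freedom, so that its p-values rest on the spread shared across genes, that with Mrgpra3 neurons 12 (gates of at least 20 cells in each library) and that with Sst neurons 14 (at least 15 cells, chosen after the cells were counted). Genes read by the limits for neurons and by the NP1, Mrgpra3, Sst and Th gates were fitted but not counted or called. Tac1 and Nefh, read only to sort other neurons into further gates, were kept in the tests. Tac1 was called against all other neurons. The SE printed with a log2 fold is its absolute value divided by the square root of the test's F statistic, and not a separately fitted error. Scaled CPM came from 1 TMM scaling over 16 sums. DESeq2 1.42.0 and the other settings named at the end were alternatives. Intervals and floors cover counting error only.

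Named genes were, per contrast, the 15 called genes (10 for the Mrgpra3 and Sst classes) with the largest fold in each direction, at least 20 CPM on the higher side in both libraries and the same sign in both; the NP1 markers; up to 4 per list and direction; and genes with a known role in Mrgprd neurons. The members, lists and rules were chosen with earlier results of these data known, and the lists hold genes of known function, not independent evidence. Scrublet marked 5 and 1 doublets by itself and was taken not to have worked; the 555 and 1020 highest scores, at 0.8% per 1000 barcodes, were removed as an alternative. Counts were simulated with 100 genes changed by 2-fold and 100 by 4-fold. The test against all other neurons recovered 100 and 100 of them, that against Mrgpra3 neurons 86 and 100, and that against Sst neurons 80 and 100. False calls numbered 10, 11 and 12. The simulation gave every gene the same spread and changed only genes at 10 CPM or more. It therefore cannot say how many changed genes of larger spread were missed. Promoter sequences are from RefSeq GRCm38.p6.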

Additional observations from a re-analysis of the deposited data

How the results depend on the processing

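The count of genes called against all other neurons (7729) moved most when the members were limited further. It was 5056 with DESeq2, 4171 with cells thinned to 10000 UMIs, 4940 against the mean of the other gates and 2182 with members at Mrgprd of 5 or more, of whom 7 and 2 remained; the cause was not tested, beyond the fewer UMIs and members that thinning and the stricter limit leave. The library term (replicate block) pairs sums of the same suspension, and without that block 4599 genes were called against all other neurons, 1386 against Mrgpra3 neurons and 3278 against Sst neurons. Thinning also left 562 calls against Mrgpra3 neurons and 1376 against Sst neurons. The settings not named here kept each count within 1.5 times of the reported one, between 5865 and 8224, between 1688 and 2107 and between 3667 and 4361. Several settings (Mrgprd of 2 or more, neurons just under the threshold left out, UMI totals, the mean of the gates, the minimum of 15 cells) were chosen after seeing the data.

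The NP1 share of neurons was 10.8% with Mrgprd of 2 or more and 0.655% with 5 or more, and it ran from 16.6% to 24.6% when a replicate was left out. Of 200 gene contrasts named with a fold, 141 kept their sign and their side of the threshold in every setting run, 53 lost the call in at least 1 and 3 changed sign. Tac1 against the mean of the other gates had a log2 fold of 0.0251, Scn11a against Mrgpra3 neurons -0.00631 with UMI totals and Plcb3 against Sst neurons -0.16 with UMI totals. The gates read Tac1, so its fold against their mean is partly set by the gating. Leaving out either library left 1 sum a side, so no test, and no called gene named changed sign. For genes named by rank or from the lists this was set in advance, since they were chosen for the same sign in both libraries. The fold within a library lay more than 1.5-fold from the fitted one for 17 of 117 called genes against all other neurons. It did so for 18 of 39 against Mrgpra3 neurons and 8 of 29 against Sst neurons. Mrgprd of 5 or more was not run against the single classes, since too few members remain. Depth per cell and the 17 to 55 cells of the single gates limit what a missed threshold can say.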

Other observations

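Gfra2, Ret and Runx1, which rose in NP1 neurons against the other neurons as a whole, had lower values in both NP1 libraries than in the neurons gated on Th, a class of low-threshold C fibres. Gfra2 had 302 and 388 scaled CPM in NP1, against 485 and 567 in Th neurons. Ret had 542 and 495 in NP1, against 654 and 544 in Th neurons. Runx1 had 253 and 322 in NP1, against 330.2 and 405 in Th neurons. Grik1 had 765 and 728 in NP1, against 317 and 288 in Th neurons. Gna14 and Plcb3 also had higher values in NP1, with 234 and 229 scaled CPM of Gna14 in NP1, against 1.27 and 6.14 in Th neurons, and 279 and 275 of Plcb3, against 5.51 and 8.66. These contrasts with the Th gate are values, with no test.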
